A study of Homo sapiens with 9 samples.

Results

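The genes described here are targets and regulators of YAP, together with the ligand TGF-beta1, in HepG2, a cell line derived from a human liver tumour. The 9 genes CCN1, CCN2, ANKRD1, AMOTL2, AJUBA, LATS2, YAP1, WWTR1 and TGFB1 were taken by their symbols from the platform annotation of the array. For 8 of them a transcript cluster was annotated, 1 cluster each, out of 17687 genes measured. AMOTL2 is not analysed here. The list was chosen by function and by measured values, namely the log2 differences between the groups of the same arrays, in which CCN1, CCN2 and ANKRD1 were already known to be lower. Their levels, differences and calls are therefore given as a description, without p-values.

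Total RNA was profiled on 9 Clariom S arrays in 3 groups of 3. VDR+VitD cells received Ad-VDR, an adenovirus that carries human VDR, for 48 h and then 10 nM VitD (calcitriol) in DMSO for 4 h. VDR cells received Ad-VDR and the DMSO vehicle for the same times, and CONT cells received Ad-C, an insertless adenovirus, and vehicle. Each of 3 independent experiments gave 1 array of every group. All groups thus carried an adenovirus, and no group combined Ad-C with VitD, so that the effect of VitD without the introduced receptor cannot be told apart from its effect through it. HepG2 is a single established line, and VDR came from a vector and not from its own gene.

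YAP and its relative TAZ (encoded by WWTR1) are coactivators that bind DNA through the TEAD transcription factors. The Hippo kinases, with LATS1 and LATS2 at the end of the cascade, phosphorylate them and keep them out of the nucleus. TGF-beta binds the receptor TGFBR2, which recruits TGFBR1, and SMAD proteins carry the signal to many of the same genes. CCN1 and CCN2 are matricellular proteins, which are secreted into the matrix and signal to cells through integrins and other receptors. In the liver, YAP is known for the control of organ size in mice, and TGF-beta and CCN2 for their part in fibrosis.

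The labels were checked by the receptor and its best known target. VDR lay between 17.45 and 17.58 in VDR+VitD cells, between 17.80 and 17.87 in VDR cells and between 6.04 and 6.79 in CONT cells, all values being log2 RMA values. CYP24A1, a hydroxylase that breaks calcitriol down, lay between 16.38 and 16.44 in VDR+VitD, between 5.25 and 6.08 in VDR and between 6.64 and 7.84 in CONT cells. Of 9 hepatocyte markers 8 were measured, all at or above 13.13 on every array, and the log2 of their mean linear value was 16.37 to 16.40 in VDR+VitD, 16.34 to 16.44 in VDR and 16.25 to 16.29 in CONT cells. COL1A1 of stellate cells (at most 5.17), PECAM1 of endothelium (at most 4.79) and PTPRC of leukocytes (at most 5.09) lay below the array medians of 6.16 to 6.20. Other markers of these lists did not, namely ACTA2 (10.88 to 11.36) and PDGFRB (6.49 to 7.37) of stellate cells and CD68 (10.53 to 11.55) of immune cells on every array, and VWF of endothelium (5.86 to 6.41) and CD163 of immune cells (5.45 to 6.21) on some. The same summary over 4 markers of immune cells, of which CD68 was the brightest, was 8.65 to 9.17 in VDR+VitD, 8.95 to 9.14 in VDR and 9.26 to 9.61 in CONT cells. For 5 stellate markers it was 8.73 to 9.08 in VDR+VitD, 8.92 to 9.17 in VDR and 8.87 to 8.94 in CONT cells. For 4 endothelial markers it was 4.80 to 4.84 in VDR+VitD, 5.01 to 5.10 in VDR and at most 5.003 in CONT cells, with 3 of the 4 markers below the 25th percentile of all genes. The hepatocyte summary was higher and the immune summary lower in both groups with Ad-VDR than in CONT cells without overlap, and the endothelial summary was higher in VDR cells than in both other groups. Their part in the results was not tested. No marker of these 4 lists was called in any comparison with limma, while at an unadjusted p under 0.05 there were 2 hepatocyte, 1 endothelial and 1 immune marker in VDR against CONT, 1 hepatocyte and 1 endothelial marker in VDR+VitD against VDR, and 2 hepatocyte and 1 immune marker in VDR+VitD against CONT. The share of all genes under that unadjusted p was not counted, so nothing is read from the marker counts. The spread of the values is that between the experiments, each of which gave a group 1 array.

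CCN2 and ANKRD1 are the members whose sequence is shown, because they are the members called lower in VDR+VitD against VDR. They were also picked because the core letters of the TEAD motif, GGAATG, occur more than once ahead of both. AJUBA and LATS2 were lower in that comparison too, without a call. The lines give the 250 bases before the annotated start of each gene, from RefSeq (GRCh38.p14), read 5′ to 3′ on the minus strand on which both genes lie. They stand at chr6:131951373-131951622 for CCN2 and at chr10:90921088-90921337 for ANKRD1, and capitals mark GGAATG.
CCN2: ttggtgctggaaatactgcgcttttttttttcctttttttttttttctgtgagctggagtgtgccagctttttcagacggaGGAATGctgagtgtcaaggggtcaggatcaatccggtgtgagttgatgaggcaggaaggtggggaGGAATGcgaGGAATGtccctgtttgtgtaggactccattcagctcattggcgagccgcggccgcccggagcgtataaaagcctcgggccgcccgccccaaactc
ANKRD1: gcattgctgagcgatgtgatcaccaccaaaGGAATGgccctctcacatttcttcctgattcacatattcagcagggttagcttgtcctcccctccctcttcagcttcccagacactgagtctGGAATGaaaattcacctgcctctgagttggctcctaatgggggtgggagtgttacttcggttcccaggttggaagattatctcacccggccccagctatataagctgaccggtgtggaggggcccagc

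Counting both strands, GGAATG occurred 3 times in the window of CCN2, at 169 to 164, 104 to 99 and 95 to 90 bases before the start. In the window of ANKRD1 it occurred 2 times, at 220 to 215 and 128 to 123 bases. Among 35116 windows of the same length, 11.9% held the motif at least once, 0.94% at least 2 times and 0.0826% at least 3 times. Since the windows shown were picked with their repeats known, nothing is read from these shares. AJUBA had 1 match at 1 of its 2 annotated starts and YAP1 had 1 match, while the windows of LATS2, TGFB1 and both starts of WWTR1 held none. CAGAC, the core letters bound by SMAD proteins, occurred 1 time ahead of CCN2, at 177 to 173 bases, and 2 times ahead of ANKRD1, at 142 to 138 and 132 to 128 bases. The last of these shares 1 base with a GGAATG match. AJUBA also had 2 matches of CAGAC, at 78 to 74 and 51 to 47 bases before its other start, and the windows of LATS2, YAP1, WWTR1 and TGFB1 held none. CAGAC was in 38.0% of all windows at least once and in 8.84% at least 2 times. The DR3 repeat to which VDR binds with the retinoid X receptor, searched with a degenerate consensus on both strands, was in 0.0655% of all windows and in none of the members'. These letters are a description of the sequence, and binding was not measured. Windows were held for 8 of the 9 genes, CCN1 being the other one.

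**Figure D1:**
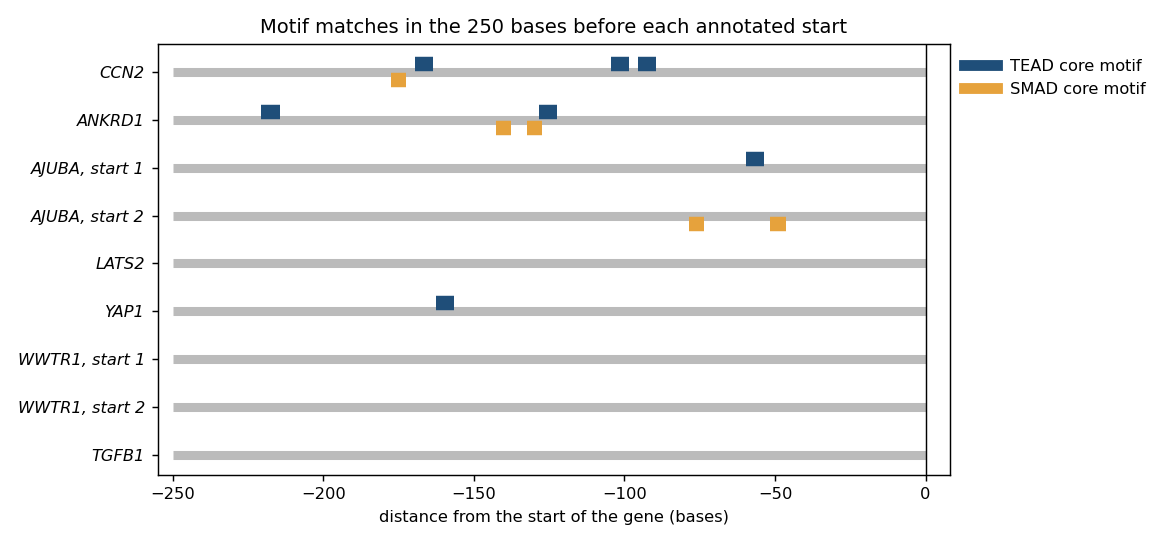
Matches of the TEAD core motif (blue) and of the SMAD core motif (orange) in the 250 bases before each annotated start of 7 measured genes; the x axis is the distance from the start in bases, and genes with 2 starts have a row each. CCN2 carries 3 TEAD core matches and ANKRD1 carries 2, AJUBA and YAP1 have 1 each, and the other rows hold no TEAD match.

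CCN1, the matricellular ligand of integrins, was lower in both groups with Ad-VDR than in CONT cells. Its log2 values were 9.56, 9.49 and 9.53 in VDR+VitD cells, 9.21, 9.35 and 9.00 in VDR cells and 11.72, 12.16 and 11.73 in CONT cells. All 6 arrays with Ad-VDR lay more than 2 log2 units below the lowest CONT array. The fit gave a difference of -2.68 (standard error 0.15) for VDR against CONT, which is a 6.42-fold lower level. With VitD the values were slightly higher again, by 0.34 (standard error 0.15, 95% interval 0.02 to 0.66) against VDR cells, and the 3 values of each group did not overlap, but this difference was not called. VDR+VitD cells remained 5.07-fold below CONT cells (difference -2.34, standard error 0.15). The 3 VDR+VitD arrays agreed to an SD of 0.04 (n = 3), against 0.18 in VDR and 0.25 in CONT cells (n = 3 each). In these bulk values, a lower level per cell and fewer cells with the transcript cannot be told apart.

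CCN2, a matricellular protein also known as connective tissue growth factor, showed another order. It stood at 11.11, 10.98 and 11.55 in VDR+VitD cells, at 13.34, 13.52 and 13.23 in VDR cells and at 13.66, 13.58 and 13.37 in CONT cells. VDR and CONT values overlapped, with a difference of -0.17 (standard error 0.16, 95% interval -0.52 to 0.17) that was not called. The VDR+VitD value was the lower one in each experiment, with differences of -2.23, -2.54 and -1.68, and the fitted difference against VDR cells was -2.15 (standard error 0.16), or 4.44-fold. Against CONT cells it was -2.32 (standard error 0.16), or 5.01-fold. CCN1 and CCN2 thus ended at similar distances from CONT cells, but each had most of its difference in another comparison.

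ANKRD1, which encodes an ankyrin repeat protein of the nucleus and, in heart muscle, of the sarcomere, is widely used as a readout of YAP. Its values were 9.19, 9.05 and 9.45 in VDR+VitD cells, 10.71, 11.32 and 10.68 in VDR cells and 12.15, 12.48 and 12.09 in CONT cells. No group overlapped another, with VDR cells in the middle. The difference was -1.34 (standard error 0.18, 2.53-fold lower) for VDR against CONT and -1.67 (standard error 0.18, 3.19-fold lower) for VDR+VitD against VDR. These comparisons share the VDR arrays. Between VDR+VitD and CONT cells the level differed 8.06-fold (-3.01, standard error 0.18), the widest difference among the 8 genes in any of the 3 comparisons. It was -2.96, -3.43 and -2.64 in the 3 experiments.

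**Figure D2:**
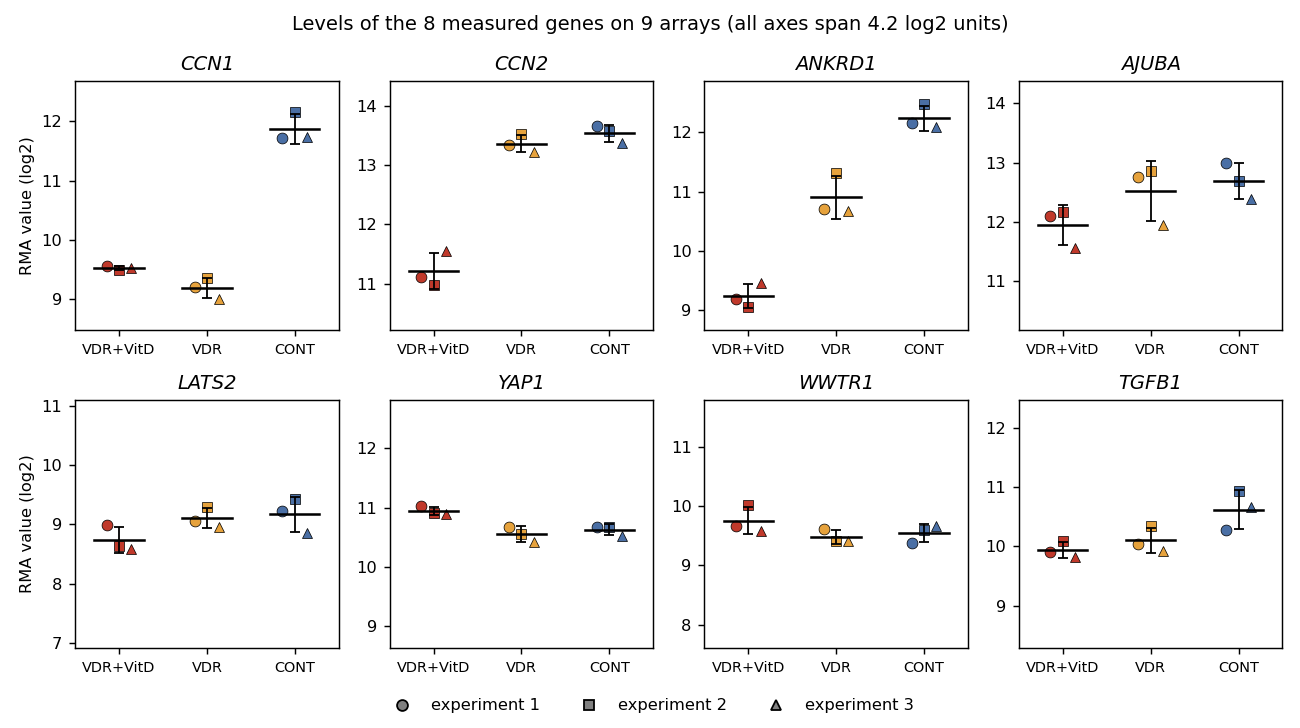
Log2 RMA values (y axis, each panel spanning 4.2 log2 units) of the 8 measured genes in VDR+VitD, VDR and CONT cells; symbols are the arrays of the 3 experiments, lines the means and bars the SD (n = 3). CCN1 is low in both groups with Ad-VDR, CCN2 only in VDR+VitD cells, and ANKRD1 is lowest in VDR+VitD cells, with VDR cells between them and CONT cells.

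TGFB1, the TGF-beta ligand in the list, had smaller differences. It was at 9.90, 10.10 and 9.83 in VDR+VitD cells, at 10.04, 10.34 and 9.93 in VDR cells and at 10.28, 10.93 and 10.66 in CONT cells. Only the VDR+VitD and CONT values were free of overlap. That difference, -0.68 (standard error 0.17, 1.60-fold lower), was called, while -0.52 (standard error 0.17) for VDR against CONT and -0.16 (standard error 0.17) for VDR+VitD against VDR were not. The call was lost without VDR+VitD replicate 1 or 3 or CONT replicate 2 or 3, with differences between -0.85 and -0.53 over all arrays left out in turn, and also with a test against a fold of 1.5.

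YAP1 and WWTR1, the coactivators themselves, were called in none of the comparisons. YAP1 was at 11.03, 10.91 and 10.90 in VDR+VitD cells, at 10.68, 10.56 and 10.42 in VDR cells and at 10.68, 10.68 and 10.53 in CONT cells. The values with VitD lay above all the others, by 0.39 (standard error 0.13, 95% interval 0.12 to 0.66) against VDR cells and by 0.32 (standard error 0.13, 95% interval 0.05 to 0.59) against CONT cells. Both differences were below the fold of 1.5 required for a call, and neither became a call without a fold threshold. The intervals are not adjusted for the number of genes. For VDR against CONT the difference of YAP1 was -0.08 (95% interval -0.35 to 0.19). WWTR1 was at 9.67, 10.02 and 9.58 in VDR+VitD cells, at 9.61, 9.42 and 9.41 in VDR cells and at 9.38, 9.60 and 9.66 in CONT cells, with overlap between every pair of groups. Its intervals were -0.38 to 0.25 for VDR against CONT, -0.04 to 0.59 for VDR+VitD against VDR and -0.10 to 0.52 for VDR+VitD against CONT. The arrays measure the transcripts, and neither the location nor the phosphorylation of the proteins was measured.

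AJUBA and LATS2 act on this cascade and are also known as genes that YAP turns on. AJUBA, a LIM domain protein that binds and restrains LATS kinases, was at 12.10, 12.17 and 11.56 in VDR+VitD cells, at 12.75, 12.86 and 11.94 in VDR cells and at 12.99, 12.68 and 12.38 in CONT cells. Experiment 3 gave the lowest AJUBA value in every group. The difference of -0.74 (standard error 0.24, 95% interval -1.25 to -0.23) for VDR+VitD against CONT was not called, though the groups did not overlap. It became a call with the experiment as a block, with the 8000 most variable genes, with the trended prior and with only the 6 arrays compared. It was also called without VDR replicate 3, as was VDR+VitD against VDR, at -0.86 in place of -0.57. LATS2, the kinase that phosphorylates YAP and TAZ, was at 8.99, 8.64 and 8.58 in VDR+VitD cells, at 9.06, 9.29 and 8.96 in VDR cells and at 9.22, 9.43 and 8.85 in CONT cells. All its groups overlapped, and the difference of -0.43 (95% interval -0.79 to -0.07) for VDR+VitD against CONT was not called. Nor was the difference of -0.37 (95% interval -0.73 to -0.01) for VDR+VitD against VDR, which was lower in every experiment.

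Counted together, 2 of the 8 genes were called in VDR against CONT, CCN1 and ANKRD1, both lower, where 0.407% of all 17687 genes were called, 0.102% higher and 0.305% lower. A call was an adjusted p under 0.05 from limma (Benjamini-Hochberg over all genes) with a fold over 1.5. For VDR+VitD against VDR 2 of 8 were called, CCN2 and ANKRD1, both lower, against 4.16% of all genes called and 1.53% called lower. VDR+VitD against CONT called 4 of 8, CCN1, CCN2, ANKRD1 and TGFB1, all lower, with 4.81% of all genes called and 2.12% lower. Since the genes were listed with these comparisons known, nothing is read from the shares. The values were lower without overlap for 2 genes in VDR against CONT, for 2 in VDR+VitD against VDR and for 5 in VDR+VitD against CONT, where 6.53%, 9.7% and 11.5% of all genes were. They were higher without overlap for CCN1 and YAP1 in VDR+VitD against VDR and for YAP1 in VDR+VitD against CONT, where 8.66% and 10.1% of all genes were, and for none in VDR against CONT, where 6.61% were. In either direction, 13.1% of all genes were free of overlap in VDR against CONT, 18.4% in VDR+VitD against VDR and 21.7% in VDR+VitD against CONT. The median difference of the 8 genes was -0.17, -0.26 and -0.71 in the 3 comparisons in the same order, beside 0.00, -0.02 and -0.01 over all genes.

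**Figure D3:**
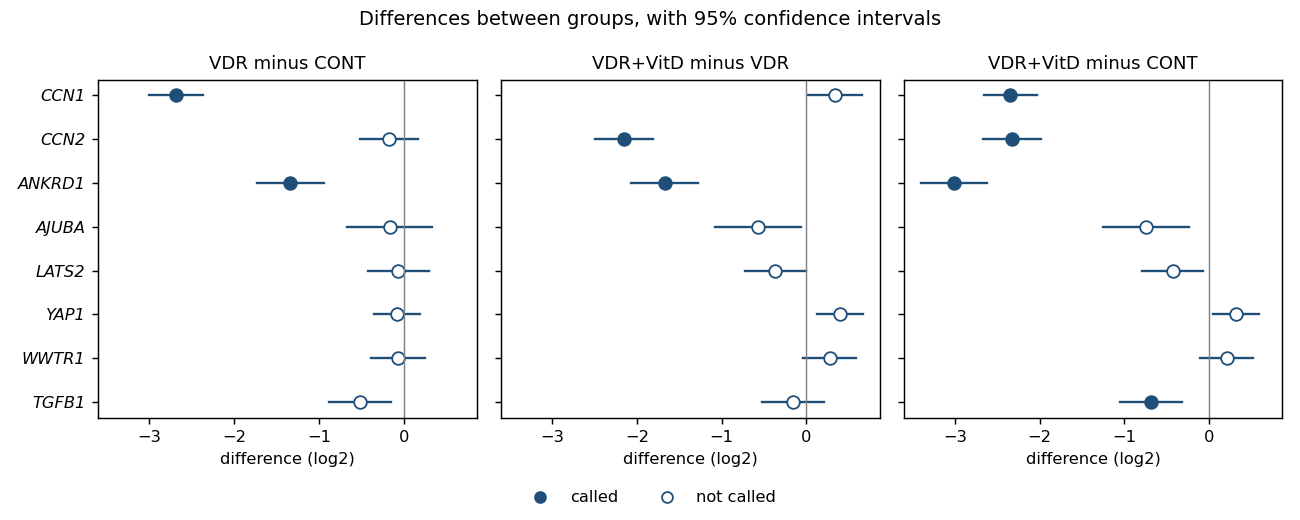
Differences in log2 value (x axis) of the 8 genes in VDR minus CONT, VDR+VitD minus VDR and VDR+VitD minus CONT, with 95% confidence intervals from the fit; filled circles were called. CCN1 (-2.68) stands out in the left panel, CCN2 (-2.15) in the middle panel, and ANKRD1 in all 3 panels.

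The genes also differed in which of them followed each other over the 9 arrays, a description in which the arrays share the same 3 groups. ANKRD1 had a Pearson correlation of 0.92 with CCN2 and of 0.76 with CCN1 (n = 9), while CCN1 and CCN2 had 0.45. TGFB1 had 0.83 with CCN1 and nearly as much, 0.81, with ANKRD1. YAP1, whose values spanned only 0.61 over the 9 arrays, had -0.85 with CCN2 and -0.70 with ANKRD1. Outside the list, 2219 genes had a range of at least 1 on the log2 scale, and the 5 most like each leading gene were taken from them. Being the highest of 2219 over arrays of 3 groups, these correlations were bound to be high, and nothing is read from their size. Most like CCN1 were LARS1 (0.990), a leucyl-tRNA synthetase, TAGLN (0.990), the actin-binding transgelin, ANXA3 (0.979), RAB3B (0.975) and IGFBP4 (0.971). TAGLN had means of 8.55 in VDR+VitD, 8.18 in VDR and 10.01 in CONT cells. Most like CCN2 were CBLB (0.989), a ubiquitin ligase, RHOBTB1 (0.986), ARID5B (0.985), TBX15 (0.985) and RNF43 (0.982), a ubiquitin ligase that acts on Wnt receptors. ARID5B had means of 10.03 in VDR+VitD, 12.41 in VDR and 12.62 in CONT cells. Most like ANKRD1 were BAAT (0.991), which conjugates bile acids to amino acids, NUDT4P2 (0.988), SH3RF1 (0.987), NUDT4 (0.985) and ARHGAP29 (0.982). NUDT4 and NUDT4P2 are near-identical copies, and whether their probes tell them apart is uncertain. BAAT had means of 6.52 in VDR+VitD, 8.09 in VDR and 9.35 in CONT cells.

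Around these genes, 76 of 81 other genes of the Hippo and TGF-beta pathways were measured, and most were not called. These genes were listed by function, but with earlier results of the same arrays known, so their p-values are not independent evidence. With Ad-VDR alone limma called none of the 76, beside the 0.407% of all genes given above. With the experiment as a block it called 1 (IGFBP3). An unadjusted p under 0.05 was held by 9 in VDR against CONT, 16 in VDR+VitD against VDR and 15 in VDR+VitD against CONT. The share of all genes under that p was not counted, so nothing is read from these numbers. VDR+VitD against VDR called 1 higher and 4 lower, and VDR+VitD against CONT 1 higher and 6 lower. That is beside 2.62% and 2.69% of all genes called higher and 1.53% and 2.12% called lower in these comparisons. The median difference of the 76 genes was 0.01, -0.03 and 0.03 in the 3 comparisons, beside the medians of all genes above. Of the 76, 16 lay below the 25th percentile of all genes by their mean, where a change can be understated.

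THBS1, the matricellular thrombospondin that activates latent TGF-beta, changed most among them. It was at 12.96, 13.01 and 12.52 in VDR+VitD cells, at 14.33, 14.95 and 13.94 in VDR cells and at 14.80, 15.11 and 14.57 in CONT cells. The VDR+VitD values lay below all 6 others. THBS1 fell by 1.58 with VitD against VDR cells (standard error 0.23, adjusted p = 4.56e-04 from limma, range over its alternatives 2.57e-06 to 0.0299), lower in 3 of 3 experiments. For VDR against CONT its difference was -0.42 (adjusted p = 0.601). The other 8 matricellular genes were not called in any comparison, among them SPP1, which encodes osteopontin, with -0.39 (adjusted p = 0.577) for VDR against CONT. CCN3, CCN4, CCN5 and CCN6, the rest of the CCN family, were not called either (limma; none had an unadjusted p under 0.05), and 3 of these 4 lay below the 25th percentile. The lowest p among them belonged to CCN6 for VDR against CONT (0.21, adjusted p = 0.684) and for VDR+VitD against CONT (0.18, adjusted p = 0.580), and to CCN5 for VDR+VitD against VDR (-0.22, adjusted p = 0.634).

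On the receiving side of TGF-beta, TGFBR2, the receptor that binds the ligand, stood at 13.55, 13.79 and 13.37 in VDR+VitD cells, at 14.34, 14.76 and 14.43 in VDR cells and at 14.97, 15.17 and 14.82 in CONT cells. No group overlapped another. It fell by 0.94 with VitD against VDR cells (standard error 0.16, adjusted p = 0.0017 from limma) and by 1.42 against CONT cells (standard error 0.16, adjusted p = 3.39e-05), in 3 of 3 experiments each, while VDR against CONT gave -0.48 (adjusted p = 0.303). LTBP3, which binds latent TGF-beta, was the called gene that rose. Its values of 8.69, 8.78 and 8.28 in VDR+VitD cells lay above the 8.05, 7.54 and 7.79 of VDR cells and the 7.65, 7.93 and 7.91 of CONT cells. LTBP3 rose by 0.79 against VDR cells (standard error 0.17, adjusted p = 0.0109 from limma) in 3 of 3 experiments, a call that was lost without VDR+VitD replicate 1 or 2 or VDR replicate 2. Against CONT cells it rose by 0.75 (adjusted p = 0.0135), lost without VDR+VitD replicate 1 or 2 or CONT replicate 1. The remaining 11 of 13 measured ligands, latency proteins, receptors and SMADs were not called in any comparison, and LTBP2 had the lowest p for VDR against CONT (0.46, adjusted p = 0.297). One of the 11, the coreceptor TGFBR3, missed a call by its fold alone and was picked out after its values were seen. It was at 12.43, 12.27 and 12.32 in VDR+VitD cells and at 12.83, 13.03 and 12.76 in VDR cells, a difference of -0.53 (1.45-fold lower, adjusted p = 0.0230 from limma) in 3 of 3 experiments. Of 13 measured TGF-beta target genes, TGIF1, a corepressor of SMAD2, was called. It was at 13.31, 12.83 and 13.02 in VDR+VitD cells, at 13.62, 14.06 and 13.62 in VDR cells and at 13.80, 14.10 and 14.02 in CONT cells. TGIF1 fell by 0.71 with VitD against VDR cells (standard error 0.16, adjusted p = 0.0185 from limma), lost without VDR+VitD replicate 2 or 3 or VDR replicate 2, and by 0.92 against CONT cells (adjusted p = 0.0027). SNAI2, a repressor known from epithelial plasticity, had the lowest p of that list for VDR against CONT (0.76, adjusted p = 0.336 from limma). Its VDR values were 4.94, 4.81 and 6.06, and without VDR replicate 3 the difference was 0.36. In VDR+VitD against VDR the difference of SNAI2 was -0.90 (adjusted p = 0.0700 from limma), without a call. It was -0.81, -0.25 and -1.63 in the 3 experiments.

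Among 15 measured genes of a YAP and TAZ target signature, other than those above, 3 were called. FJX1, a secreted regulator of planar polarity by its fly relative, was at 5.44, 5.70 and 5.41 in VDR+VitD cells, at 6.13, 6.12 and 6.16 in VDR cells and at 6.14, 6.18 and 6.10 in CONT cells. FJX1 fell by 0.62 with VitD against both VDR (standard error 0.13, adjusted p = 0.0077 from limma) and CONT cells (standard error 0.13, adjusted p = 0.0067), in 3 of 3 experiments each. Without VDR+VitD replicate 3 (adjusted p = 0.0407 against VDR and 0.0348 against CONT), and without VDR+VitD replicate 1 against VDR (adjusted p = 0.0398), FJX1 was not called because its fold was then not over 1.5. Its CCN2-like order differed from that of IGFBP3, a secreted IGF-binding protein. IGFBP3 was at 10.90, 11.56 and 11.37 in VDR+VitD cells, at 11.08, 11.74 and 11.21 in VDR cells and at 12.39, 12.24 and 12.11 in CONT cells. IGFBP3 fell by 0.97 in VDR+VitD against CONT cells (standard error 0.19, adjusted p = 0.0061 from limma). Most of this difference was present without VitD, since VDR against CONT gave -0.90 (adjusted p = 0.0638, range over its alternatives 0.0126 to 1) and VDR+VitD against VDR gave -0.07 (adjusted p = 0.930) with overlap. With the experiment as a block, IGFBP3 was called in VDR against CONT (adjusted p = 0.0292). NUAK2, a kinase, was at 6.82, 7.22 and 6.62 in VDR+VitD cells, at 7.29, 6.90 and 7.47 in VDR cells and at 8.17, 7.87 and 7.58 in CONT cells. It fell by 0.99 in VDR+VitD against CONT cells (standard error 0.19, adjusted p = 0.0059 from limma), while VDR against CONT gave -0.65 (adjusted p = 0.242) and the VDR and VDR+VitD values overlapped.

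Neither the 15 measured Hippo kinases and adaptors nor the 7 TEAD and VGLL factors held a called gene in any comparison with limma. At an unadjusted p under 0.05, VDR against CONT held 1 kinase or adaptor and 0 TEAD or VGLL factors. VDR+VitD against VDR held 4 and 2 of them, and VDR+VitD against CONT 2 and 1. How many of all genes passed that cut was not counted, so nothing is read from these counts. SAV1, the scaffold of the MST kinases, had the lowest p of its list with VitD, -0.37 against VDR (adjusted p = 0.206) and -0.46 against CONT cells (adjusted p = 0.0859), and NF2, which activates the cascade at the membrane, had it for VDR against CONT (-0.40, adjusted p = 0.448). TEAD4 had 0.44 in VDR+VitD against VDR (adjusted p = 0.219), TEAD3 -0.52 against CONT cells (adjusted p = 0.170) and TEAD1 -0.27 in VDR against CONT (adjusted p = 0.591). These values do not show that the genes were alike in the groups.

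**Figure D4:**
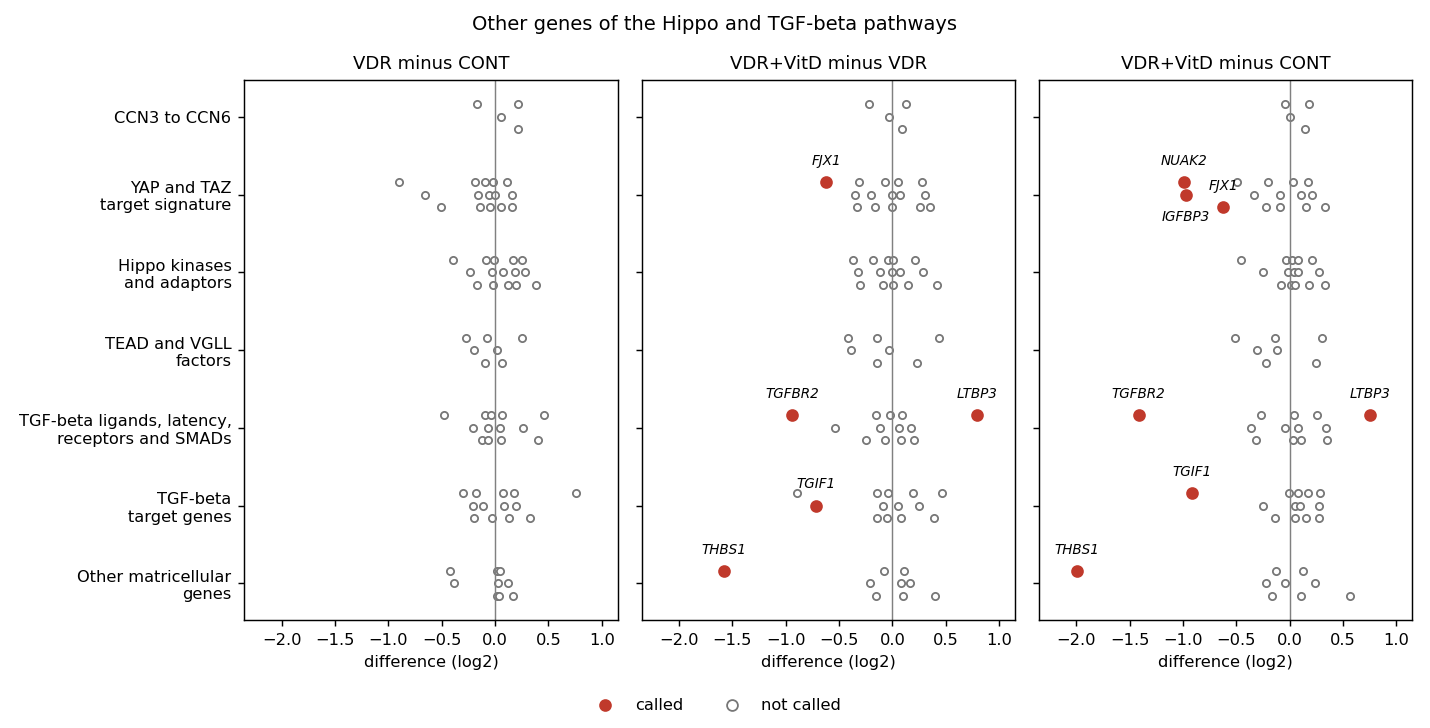
Differences in log2 value (x axis) of 76 other genes of the Hippo and TGF-beta pathways, by list (rows), in VDR minus CONT, VDR+VitD minus VDR and VDR+VitD minus CONT; filled red circles were called. No gene is called in the left panel, and THBS1 (-1.58) and TGFBR2 (-0.94) are the lowest called genes in the middle panel.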

How the data were processed

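HepG2 total RNA was hybridised to Clariom S arrays. The deposited log2 values were made by the authors with RMA, which subtracts background, quantile-normalizes the arrays and summarises probes, and have 2 decimals. The submitters' processing notes name Transcriptome Analysis Console 4.0.2, while the methods name a revised Entrez-based probe annotation. The values run from 2.47 to 18.24 over 21448 clusters. Quantile normalization hides a shift shared by most genes. For the array's genome build the sources used here give no name. Symbols came from the platform annotation, with 17709 clusters naming 1 gene and 3739 unnamed, and all 17709 matched RefSeq by Entrez identifier. Clusters of the same gene were averaged (20 genes), which left 17687 genes. The 3 arrays per group limit the precision.

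Groups were compared with limma 3.58.1 in R 4.3.3 (lmFit, eBayes) on all 9 arrays with the group as the only factor, since the study's methods name limma and no block, and Benjamini-Hochberg adjustment over all genes. Filters of the kind those methods name were tried as alternatives. The code was tested on simulated data. The members and the lists were chosen with earlier results of these data known. The text names the members, up to 4 called genes of each pathway list or else the gene with the lowest p, and the 5 genes most like CCN1, CCN2 and ANKRD1. The experiment number pairs the arrays by the labels. Deviations from group means correlated with r of 0.042 to 0.145 in 9 pairs of the same experiment and of -0.096 to 0.010 in 18 other pairs. Alternatives were the experiment as a block, filters on low and on less variable genes, a trended prior, other fold rules, fewer arrays, median centring, the brightest cluster and leaving out each array.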

Additional observations from a re-analysis of the deposited data

How the results depend on the processing

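Under 18 alternatives each, none of the 24 differences of the 8 genes moved by as much as the SD between replicates, and no called gene of them changed sign. The size of the move could not have come out otherwise. Most settings leave a difference unchanged or nearly so, and leaving out 1 array of a group shifts its mean by less than that SD. Nothing is therefore read from it about robustness, and the calls are the part that could change. The call changed under some alternative for 4 of the 24, namely ANKRD1 in VDR against CONT, TGFB1 and AJUBA in VDR+VitD against CONT, and AJUBA in VDR+VitD against VDR. With a test against a fold of 1.5, 1 of the 8 genes was called in VDR against CONT (CCN1), while 0, 1 and 2 of the 76 pathway genes were called in VDR against CONT, VDR+VitD against VDR and VDR+VitD against CONT. These were THBS1 in VDR+VitD against VDR, and TGFBR2 and THBS1 in VDR+VitD against CONT. The settings other than leaving out arrays, this one included, gave 2 members in VDR+VitD against VDR and 3 to 5 in VDR+VitD against CONT. With the experiment as a replicate block, 1 pathway gene was called in VDR against CONT, IGFBP3, as with the 8000 most variable genes (1) and with the trended prior (1). The block gave 6 in VDR+VitD against VDR and 7 in VDR+VitD against CONT, and 2, 2 and 5 members. Leaving out each array in turn gave 2 to 2, 2 to 3 and 3 to 5 members, and 0 to 1, 3 to 6 and 6 to 7 pathway genes. Leaving out VDR+VitD replicate 2 or 3 gave the 3 pathway genes in VDR+VitD against VDR. IGFBP3 was called in VDR against CONT without VDR+VitD replicate 1 or VDR replicate 2. The causes were not tested. Background correction and normalization could not be varied, since the deposited values were already normalized. Values near background can understate a change.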
